A study of Homo sapiens with 8 samples.

Results

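The nuclear genes that encode subunits of respiratory complexes II to V, together with cytochrome c, were followed through PTBP1 knockdown (KD) in leukemia cells. The set holds 41 genes, chosen from a list of subunit names and not by any measured value, out of 16474 genes with a count in at least 1 library. It comprises 4 genes of complex II, 9 of complex III, cytochrome c (CYCS), 11 of complex IV and 16 of complex V. The cells were MOLM-13, a human acute myeloid leukemia line. In 4 libraries the cells carried a lentiviral dox-inducible shRNA against PTBP1 (shPTBP1, genotype PTBP1 KD), and in the other 4 they carried a scrambled shRNA (shSCR, labelled shControl, genotype WT). Either vector also carries mCherry, which does not depend on dox, and ΔLNGFR, which does, and both groups received dox for 9 days. A single shRNA stands for each group, so other differences between the cells carrying them cannot be told apart from the loss of PTBP1, and p values measure only the spread between the 4 biological replicates. RNA was converted to cDNA and read as long nanopore reads, which were assigned to annotated transcripts and summed per gene. The comparison asks which of these subunit mRNAs, and which of their splice isoforms, differ after PTBP1 KD. In bulk samples, fewer cells of a kind and less RNA per cell cannot be told apart.

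Oxidative phosphorylation is carried out by protein complexes in the inner mitochondrial membrane. Complex II passes electrons from succinate to ubiquinone, complex III passes them on to cytochrome c, and complex IV (cytochrome c oxidase) gives them to oxygen, while complexes III and IV build a proton gradient that complex V (ATP synthase) uses to make ATP. Most subunits are encoded in the nucleus and imported, and a small number of core subunits of complexes III, IV and V are encoded by mitochondrial DNA. Leukemia cells are known to draw on oxidative phosphorylation beside glycolysis. PTBP1 binds pyrimidine-rich RNA and regulates splicing.

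Levels are given as normalized CPM, that is counts per 1000000 of the library after TMM scaling, which holds no correction for transcript length. Changes are log2 fold changes of shPTBP1 over shSCR from edgeR's quasi-likelihood test, and a gene is called when its Benjamini-Hochberg adjusted p over the 7597 genes tested is under 0.05. The libraries held between 1528449 and 1613342 counts. PTBP1 itself was at 6.25, 9.79, 8.45 and 14.5 normalized CPM in shPTBP1 replicates 1 to 4 and at 39.4, 56.6, 42.2 and 49.4 in shSCR replicates 1 to 4, so that every KD library was below every control library (log2 fold change -2.26, adjusted p = 7.18e-05). Of 11 markers of myeloid leukemia, 8 were abundant enough to test, and 1 of them, CD68, a lysosomal protein of myeloid cells, was called higher (log2 fold change 0.36, edgeR adjusted p = 0.0193). Among the defining markers, SPI1 was at 0 in 7 libraries and FLT3 and MEIS1 were below the filter, while CD33 was between 66.5 and 101 normalized CPM. Markers of other cells (10 genes of T cells, B cells, erythroid, epithelial and stromal cells) summed to between 7.83 and 12.4 normalized CPM after shPTBP1 and between 5.46 and 11.2 after shSCR, with 5 of the 10 at 0 in every library.

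All 41 subunit genes passed the filter on low counts. After PTBP1 KD, 3 of them were called higher and none lower: UQCRC2 of complex III, COX7A2L of complex IV and ATP5MC1 of complex V. The background is that edgeR called 2.36% of all genes tested higher and 3.19% lower. The members called higher make up 7.32% of the 41, a share that rests on 3 genes. At an unadjusted p under 0.05, 6 of the 41 were higher and 2 lower, beside 691 and 768 of all 7597, and DESeq2, limma-voom and limma-trend also called none lower. The median log2 fold change of the 41 was 0.05, beside -0.00 over all genes tested. The point estimate was above 0 for 31 of the 41, beside 3798 of the 7597 genes tested, but the genes are not independent, since libraries were low or high in many of them at once. Of the 38 genes not called, 36 had a 95% interval of the log2 fold change within 0.5 of 0 on either side. The exceptions were UQCRFS1 and ATP5F1D, the least abundant of the set. With the called genes counted, 37 of the 41 had such an interval, beside 3184 of the 7597 genes tested. The members also varied less between libraries. Their median SD was 6.88% of the mean in shPTBP1 and 6.82% in shSCR, beside 14.0% and 14.8% over all genes tested. All genes tested were not matched to the members by abundance. The 37 nuclear subunits of complex I were at 8.24% and 9.22%, with 31 of their intervals within 0.5 of 0. The 6 carriers tested were at 4.13% and 7.60%. The part of the lower variation in the share of members called was not tested. The 4 libraries of one group lay entirely above or below those of the other for 5 of the 41 genes (12.2%), all 5 with shPTBP1 above, beside 12.7% of all genes tested in either direction. Apart from the called genes these were CYC1 and ATP5F1B.

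**Figure D1:**
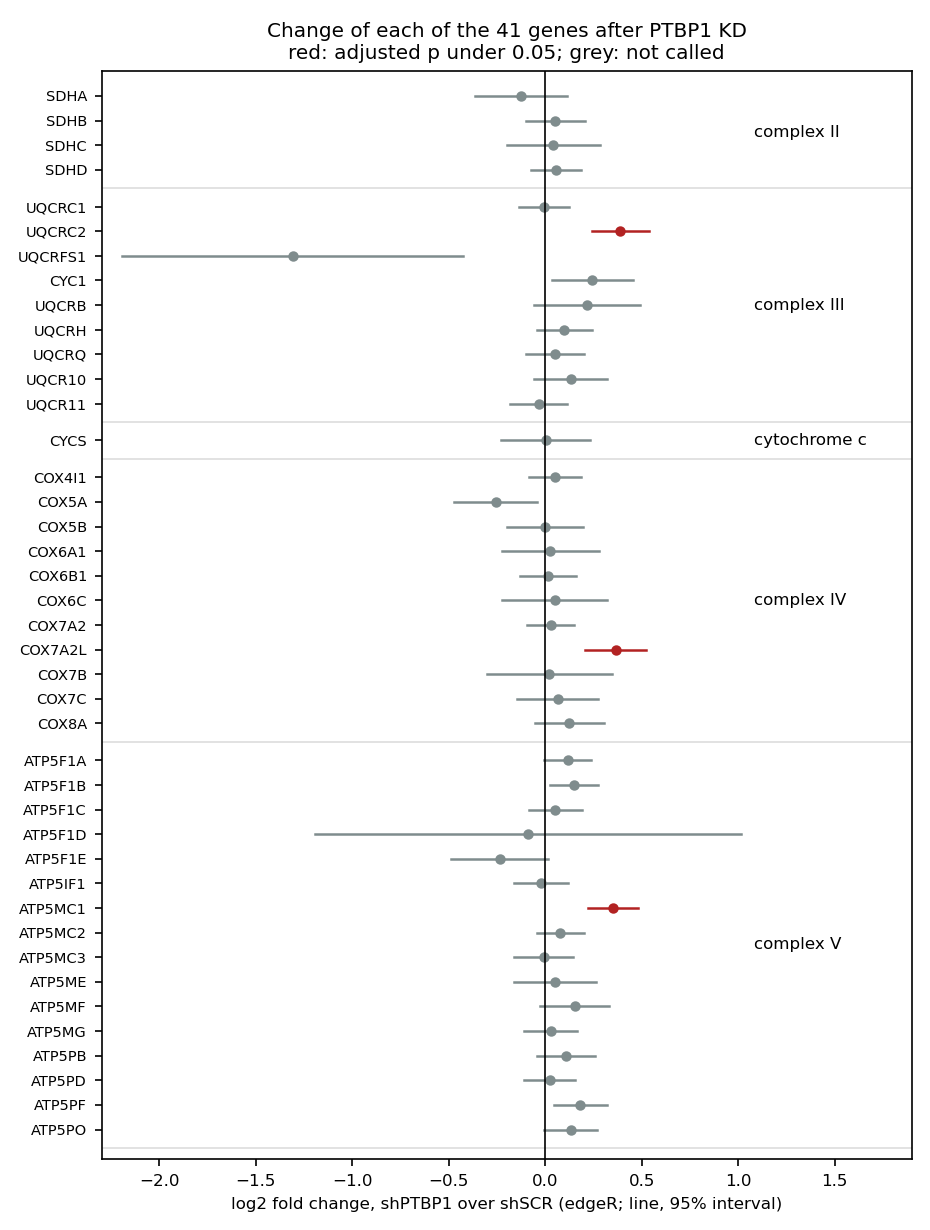
Log2 fold change of shPTBP1 over shSCR for each of the 41 genes (points) with its 95% interval (lines), grouped by complex. Red marks the 3 genes called higher, whose values lie between 0.35 and 0.39; the widest intervals belong to UQCRFS1 and ATP5F1D.

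The reference sequence near the starts of the 2 called genes that have a single promoter entry is shown first, since these are the genes whose mRNA changed, followed by the exons referred to for COX7A2L and ATP5F1C. Promoter sequence is from RefSeq on GRCh38.p14, which matched 33 of the 41 genes in 39 entries (SDHC, CYC1, UQCRB, COX6C, ATP5F1B, ATP5F1D, ATP5MC3 and ATP5MF were not matched). For UQCRC2, a core protein of complex III, the stretch is chr16:21953111-21953287 (177 bases, plus strand). For ATP5MC1, one of the genes of the c ring of ATP synthase, it is chr17:48892537-48892786 (250 bases, plus strand). Capitals mark CCAAT on either strand, the box that NF-Y binds. The RefSeq start of each gene lies to the right, while the main transcript in GENCODE, ATP5MC1-201, starts at 48892765, so that the last 22 bases of the ATP5MC1 stretch belong to it and the last box stands at its start.
UQCRC2: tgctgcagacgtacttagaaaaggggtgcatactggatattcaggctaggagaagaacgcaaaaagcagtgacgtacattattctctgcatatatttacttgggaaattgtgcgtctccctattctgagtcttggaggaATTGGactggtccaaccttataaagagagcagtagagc
ATP5MC1: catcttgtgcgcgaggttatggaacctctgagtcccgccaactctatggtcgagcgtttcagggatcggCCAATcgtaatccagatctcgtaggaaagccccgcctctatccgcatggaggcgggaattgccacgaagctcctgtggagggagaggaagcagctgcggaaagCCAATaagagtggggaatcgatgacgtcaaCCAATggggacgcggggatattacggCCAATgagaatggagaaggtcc

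The stretch of ATP5MC1 holds 4 copies of the box and that of UQCRC2 holds 1, but the stretches are not alike. That of ATP5MC1 runs up to its RefSeq start. That of UQCRC2 is shorter and ends at 21953287, next to the first base of the annotated gene, while UQCRC2-201 starts at 21953361. In windows of 300 bases (250 before the start and 50 after), CCAAT was present in 45.5% of the matched members (15 of 33) and in 39.7% of all 27305 genes of the table. The site of NRF1, a factor known for respiratory genes, written as GCGCA, any base and then GCGC, was present in 9 of the 33 (27.3%, against 6.98% of all genes). The ETS site CCGGAAG, which GABP binds, was present in 15 (45.5%, against 12.2%), and AAGATGG, the core of the YY1 site, in 9 (27.3%, against 7.11%). All were searched on both strands, and CCGGAAG and AAGATGG can share letters where they meet. Among the called genes, neither the NRF1 nor the ETS letters were found in any window, AAGATGG was found in UQCRC2, and CCAAT was found in UQCRC2, ATP5MC1 and 1 of the windows of COX7A2L. A match of letters is a description and not a binding site, and these letters were chosen with the values of the genes known. The comparison is with all genes of the promoter table, many of them too low to test here. Shares among expressed genes were not computed.

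Complex II oxidizes succinate and is the only one of these complexes without a mitochondrially encoded subunit. None of its 4 genes was called. The log2 fold change was -0.12 for SDHA, the catalytic flavoprotein, 0.05 for SDHB, the iron-sulfur subunit, and 0.04 and 0.05 for the membrane anchors SDHC and SDHD. All 4 intervals lay within 0.5 of 0. Summed over the 4 genes, the complex stood at 840 ± 36.8 normalized CPM in the controls (mean ± SD, n = 4) and 864 ± 37.0 after KD, and the groups overlapped. The level per kilobase of transcript in shSCR ran from 21.5 CPM per kb for SDHA to 351 for SDHD. Levels of different genes are set side by side per length here, and whether counts of long reads depend on transcript length was not tested.

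In complex III, 1 of the 9 genes, UQCRC2, was called higher and none lower. UQCRC2 (ENSG00000140740, chromosome 16 from 21953288 to 21983660) was at 202, 221, 203 and 196 normalized CPM in shPTBP1 replicates 1 to 4 and at 162, 153, 161 and 152 in shSCR replicates 1 to 4. Every KD library lay above every control library, with the lowest KD library, replicate 4, well above the highest control, replicate 1. The gene rose by 0.39 on the log2 scale (SE 0.07, edgeR adjusted p = 0.00605), from 157 ± 5.03 to 206 ± 10.8 normalized CPM (SD, n = 4). Its transcript UQCRC2-201, with 14 exons and annotated as protein coding, held 93.8% ± 0.73 of the gene's counts after shPTBP1 and 92.2% ± 0.45 after shSCR, so most of the counts behind the rise were on the main coding transcript.

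UQCRC1, the core protein that pairs with UQCRC2, had a log2 fold change of -0.01, with a 95% interval from -0.14 to 0.12. Per library, the CPM of UQCRC2 was 0.415, 0.444, 0.432 and 0.417 times that of UQCRC1 after shPTBP1 and 0.356, 0.322, 0.312 and 0.310 times after shSCR. The ratio was therefore higher in every KD library than in any control library. This ratio rests on the same counts as the call of UQCRC2 and is no further evidence for it.

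Among the catalytic subunits of complex III, UQCRFS1, the Rieske iron-sulfur protein, had the largest estimate of the whole set, and it was not called. Its raw counts were 2, 7, 8 and 11 in shPTBP1 replicates 1 to 4 and 11, 20, 15 and 25 in shSCR replicates 1 to 4, or 1.25, 4.57, 5.20 and 6.96 against 6.68, 12.6, 9.88 and 15.8 normalized CPM. Counts were few in both groups, and the groups overlapped only through shPTBP1 replicate 4 and shSCR replicate 1, both with 11 counts. The log2 fold change was -1.31 (SE 0.41, 95% interval from -2.19 to -0.43, edgeR adjusted p = 0.0868). All of these counts were on UQCRFS1-201, whose annotated length is 3086 bases. At 3.64 CPM per kb in shSCR it was the lowest of the 41 genes per length, while in CPM without length ATP5F1D was the lowest in shSCR. CYC1, cytochrome c1 and the other catalytic subunit encoded in the nucleus, was at 83.1, 86.8, 89.1 and 89.8 normalized CPM after shPTBP1 and at 66.2, 66.7, 79.0 and 83.0 after shSCR. Its groups were only just apart, shPTBP1 replicate 1 being next to shSCR replicate 4, and with a log2 fold change of 0.24 (SE 0.10, adjusted p = 0.191) it was not called.

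The accessory subunits of complex III were not called. Their log2 fold changes were 0.22 for UQCRB, 0.10 for UQCRH, 0.05 for UQCRQ, 0.13 for UQCR10 and -0.03 for UQCR11. The values of UQCRH are uncertain because UQCRHL is a nearly identical copy, between which reads can be split. UQCRHL held only 10 to 20 counts per library. In shSCR it was at 10.7 ± 1.29 normalized CPM, beside 737 ± 43.1 for UQCRH (SD, n = 4). CYCS, the soluble electron carrier between complexes III and IV, had a log2 fold change of 0.00 (95% interval from -0.23 to 0.23) and was at 77.6 ± 8.11 normalized CPM after shPTBP1 and 77.5 ± 8.03 after shSCR.

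In complex IV, 1 of the 11 genes was called. COX7A2L (ENSG00000115944, chromosome 2 from 42333546 to 42425088, minus strand) is related to the subunit COX7A2 and is known for its part in joining complexes III and IV into supercomplexes. It was at 176, 185, 185 and 186 normalized CPM in shPTBP1 replicates 1 to 4 and at 153, 131, 148 and 136 in shSCR replicates 1 to 4. The KD libraries all lay above the control libraries, and replicate 1 was the lowest of the KD group and the highest of the control group. COX7A2L rose by 0.36 on the log2 scale (SE 0.07, edgeR adjusted p = 0.0128). COX7A2 itself had a log2 fold change of 0.03, with a 95% interval from -0.10 to 0.15.

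Few of the counts behind this call were on the coding transcript. COX7A2L-207, annotated by GENCODE as a transcript of a coding gene without a defined reading frame, held 97.4% ± 1.37 of the gene's counts after shPTBP1 and 97.1% ± 1.07 after shSCR. It had 278, 271, 275 and 288 counts in shPTBP1 replicates 1 to 4 and 244, 201, 222 and 206 in shSCR replicates 1 to 4. The coding transcript COX7A2L-202 had 28 counts over all 4 KD libraries and 25 over all 4 controls, below the filter for a test of it alone. COX7A2L-207 has 3 exons from 42350507 to 42360038, and its annotated start lies inside an intron of COX7A2L-202. Both transcripts hold the coding exon at chr2:42353212-42353343 (132 bases), printed below in capitals from hg38 on the minus strand with 40 intron bases before it and 20 after it, because reads of either transcript cross it. A read that covers only the exons that both share does not tell them apart by sequence, so the assignment is uncertain, while the sum for the gene does not depend on it.
COX7A2L: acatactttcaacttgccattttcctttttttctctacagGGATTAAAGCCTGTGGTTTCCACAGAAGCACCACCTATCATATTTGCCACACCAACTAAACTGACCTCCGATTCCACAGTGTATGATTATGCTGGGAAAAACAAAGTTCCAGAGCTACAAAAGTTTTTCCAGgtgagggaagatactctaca

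COX5A, a nuclear subunit of complex IV, had the largest negative estimate in that complex and was not called. It was at 130, 131, 129 and 163 normalized CPM in shPTBP1 replicates 1 to 4 and at 188, 148, 152 and 171 in shSCR replicates 1 to 4. In 3 of the 4 KD libraries it lay below every control, while shPTBP1 replicate 4 lay among the controls (log2 fold change -0.26, SE 0.10, edgeR adjusted p = 0.172). The other nuclear subunits were not called either. COX4I1, COX5B, COX6A1, COX6B1 and COX6C had log2 fold changes of 0.05, -0.00, 0.03, 0.01 and 0.05. COX7B, COX7C and COX8A had 0.02, 0.06 and 0.12. COX8A was the most abundant member per length, at 3813 CPM per kb in shSCR, followed by COX7A2 at 3271.

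In complex V, 1 of the 16 genes was called. ATP5MC1 (ENSG00000159199, chromosome 17 from 48892765 to 48895871) encodes the c subunit, copies of which form the rotating ring in the membrane. It was at 750, 839, 803 and 797 normalized CPM in shPTBP1 replicates 1 to 4 and at 597, 599, 670 and 634 in shSCR replicates 1 to 4, so the groups did not overlap. ATP5MC1 rose by 0.35 on the log2 scale (SE 0.06, edgeR adjusted p = 0.00508). Its main transcript, ATP5MC1-201, is protein coding and held 90.3% ± 0.68 of the counts after shPTBP1 and 89.6% ± 1.75 after shSCR.

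The same mature c subunit is also encoded by ATP5MC2 and ATP5MC3, which differ from ATP5MC1 in the part removed at import. ATP5MC2 had a log2 fold change of 0.08 (95% interval from -0.05 to 0.20) and ATP5MC3 of -0.01 (from -0.16 to 0.15). ATP5MC1 made up 26.2%, 26.1%, 26.2% and 26.1% of the summed CPM of the 3 genes in shPTBP1 replicates 1 to 4 and 21.8%, 22.9%, 22.8% and 22.3% in shSCR replicates 1 to 4. The share was higher in every KD library, and the KD libraries spread less (SD 0.073 percentage points) than the controls (SD 0.516). ATP5MC2 remained the main source of c subunit mRNA, with 61.6% ± 0.57 after shPTBP1 and 64.0% ± 0.61 after shSCR (SD, n = 4). As for UQCRC2, these shares use the counts that made the call.

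The catalytic F1 head of ATP synthase was not called in any of its 5 genes. ATP5F1B, the catalytic beta subunit, was the most abundant mRNA of the set in CPM, at 3732, 3671, 3780 and 3660 normalized CPM in shPTBP1 replicates 1 to 4 and at 3419, 2990, 3609 and 3372 in shSCR replicates 1 to 4. All KD libraries lay above all controls, by a narrow gap (log2 fold change 0.15, SE 0.06, edgeR adjusted p = 0.171). ATP5F1A, the alpha subunit, was at 2327, 2294, 2338 and 2242 after shPTBP1 and at 2048, 2109, 2336 and 2002 after shSCR. Its groups overlapped through shSCR replicate 3 (log2 fold change 0.12, SE 0.06, edgeR adjusted p = 0.284). ATP5F1C, the gamma subunit, had 0.05 and ATP5F1E, the epsilon subunit, -0.24. ATP5F1D, the delta subunit, had -0.09 with an interval from -1.19 to 1.01. It was at 5.64 ± 2.88 normalized CPM after shPTBP1 and 5.94 ± 3.59 after shSCR, and its leading transcript, ATP5F1D-204, is annotated with a retained intron.

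The stalk and membrane subunits of complex V were not called. ATP5PF, coupling factor 6 of the stalk, came nearest, at 1354, 1532, 1546 and 1549 normalized CPM in shPTBP1 replicates 1 to 4 and at 1303, 1226, 1432 and 1319 in shSCR replicates 1 to 4. Only shPTBP1 replicate 1 lay within the range of the controls (log2 fold change 0.18, SE 0.06, edgeR adjusted p = 0.128). Without that library the gene was called (log2 fold change 0.23, edgeR adjusted p = 0.0486). Of the 8 fits with 1 library left out, 1 called ATP5PF, and of 10 alternatives with all libraries kept, 0 did. The other stalk genes ATP5PB, ATP5PD and ATP5PO had log2 fold changes of 0.11, 0.02 and 0.13. In the membrane part, ATP5ME, ATP5MF and ATP5MG had 0.05, 0.15 and 0.03. ATP5IF1, the inhibitor that blocks ATP hydrolysis when the gradient is lost, had -0.02 (95% interval from -0.16 to 0.12).

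**Figure D2:**
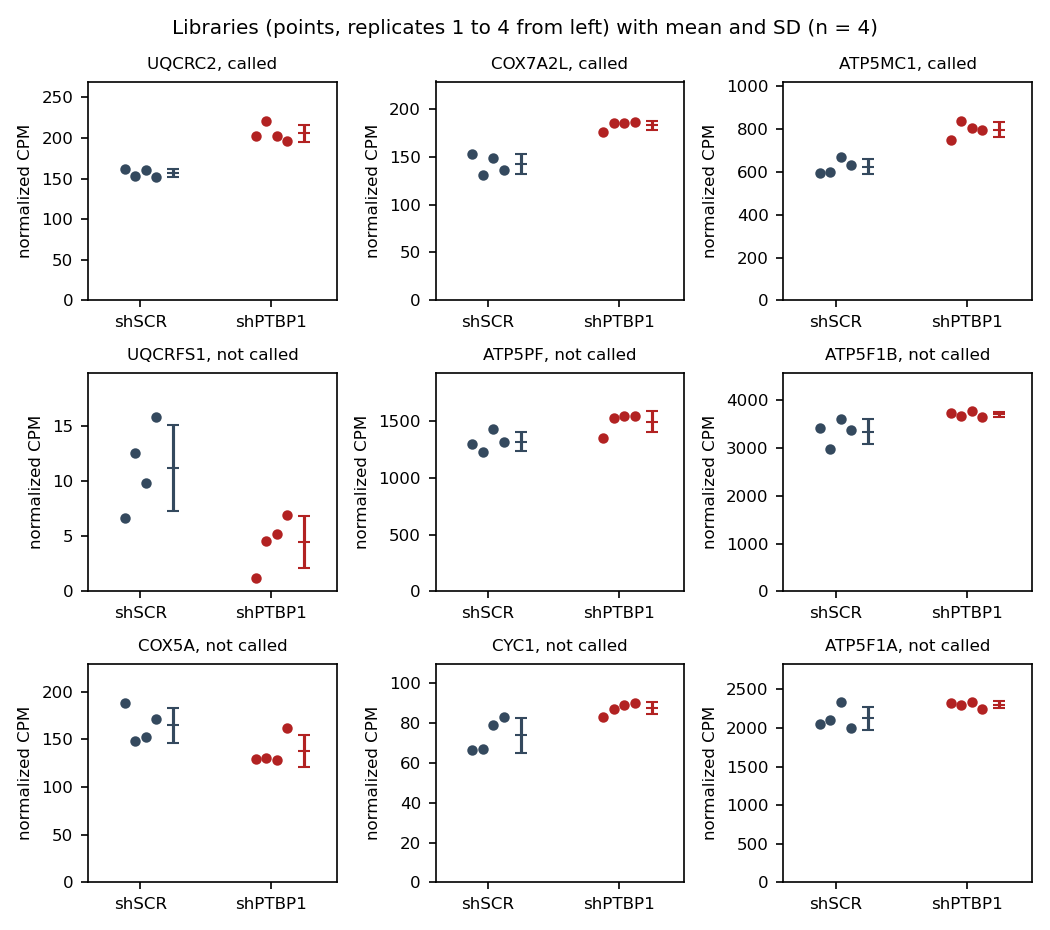
Normalized CPM of the 3 called genes and of the 6 others with the smallest p, for each library (points, replicates 1 to 4 from left to right) with the mean and SD of each group (n = 4). In UQCRC2, COX7A2L and ATP5MC1 the shPTBP1 libraries all lie above the shSCR libraries, while UQCRFS1, ATP5PF, COX5A and ATP5F1A overlap and the gap is narrow for ATP5F1B and CYC1.

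Summed over genes, no complex separated the groups. Complex III stood at 3258 ± 171 normalized CPM in the controls and 3411 ± 181 after KD (mean ± SD, n = 4), complex IV at 7061 ± 538 and 7357 ± 476, and complex V at 14840 ± 738 and 16020 ± 543. The ranges of the libraries overlapped in each. All 41 genes together were at 27730 ± 1207 normalized CPM after shPTBP1 and 26076 ± 1393 after shSCR, which is 2.77% and 2.61% of the normalized library. The log2 ratio of these means was 0.09, and the groups overlapped.

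**Figure D3:**
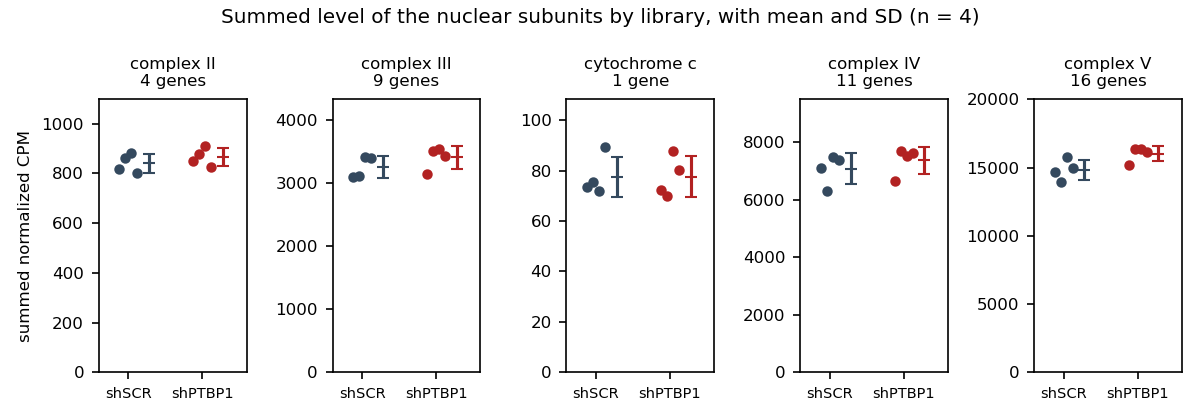
Summed normalized CPM of the nuclear subunits of each complex, and of cytochrome c, by library (points, replicates 1 to 4 from left to right) with mean and SD (n = 4). The groups overlap in all 5 panels, and shPTBP1 replicate 1 and shSCR replicate 2 are low in complex IV and complex V.

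Within each group, 1 library was low across many of the subunits. In the KD group shPTBP1 replicate 1 was the lowest library for 28 of the 41 genes, and in the control group shSCR replicate 2 was the lowest for 24. The median deviation from the group mean was -0.11 on the log2 scale for shPTBP1 replicate 1 and -0.10 for shSCR replicate 2. Among the 20 genes with transcripts shorter than the median of the set (752 bases), shPTBP1 replicate 1 was the lowest KD library for 18, with a median deviation of -0.14, and among the 21 others it was the lowest for 10, with -0.07. These libraries also had the longest median annotated length of the counted transcripts in their groups, at 1511 and 1512 bases, beside 1355 to 1384 in the other KD libraries and 1416 to 1477 in the other controls. The part of this difference in the values of the subunits was not tested. The 3 calls held without either library: without shPTBP1 replicate 1 and without shSCR replicate 2 alike, UQCRC2, COX7A2L and ATP5MC1 remained called.

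**Figure D4:**
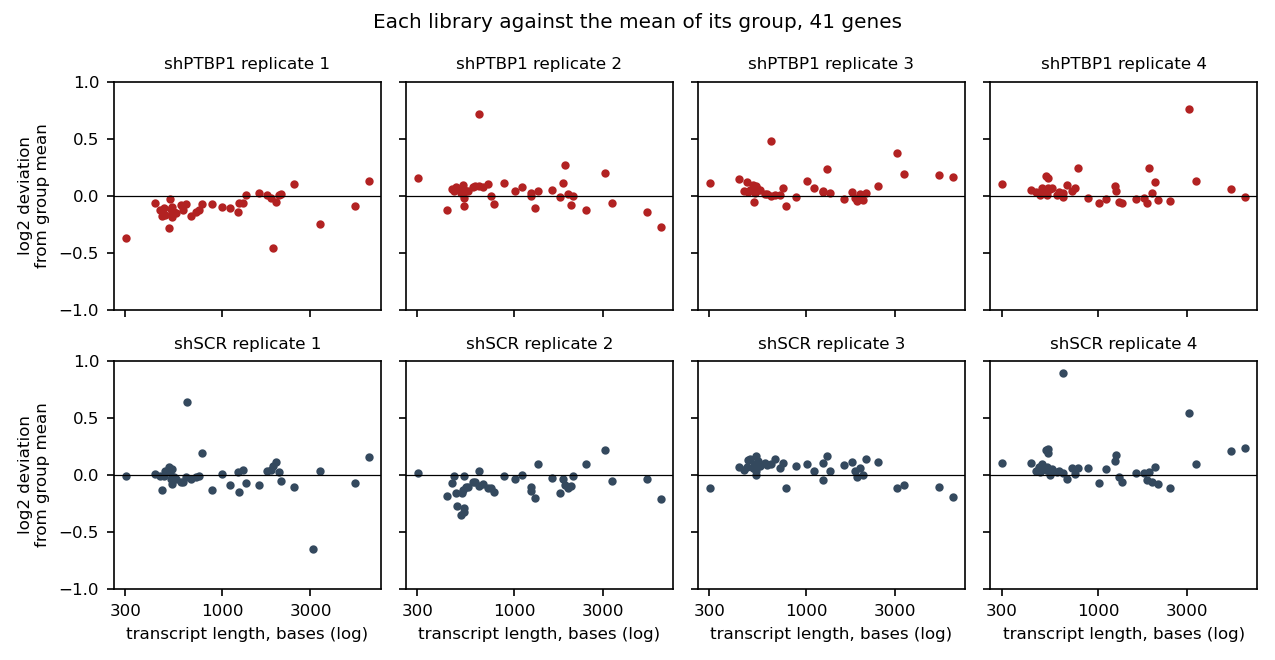
Deviation of each library from the mean of its own group (log2 scale, vertical axis) against the mean length of the counted transcripts of each gene (bases, log axis), 1 panel per library and 1 point per gene. In shPTBP1 replicate 1 the short transcripts lie below 0, and 3 points, 1 of UQCRFS1 and 2 of ATP5F1D, lie outside the plotted range.

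Splice isoforms of the subunits were described by their share, the fraction of the gene's counts that a transcript held. The p values came from the change of a transcript relative to that of its gene, and not from the share. Of the 5464 transcripts tested with edgeR's diffSpliceDGE, 68 belonged to 27 of the 41 genes. The test called none of the 68, beside 1.12% of all transcripts tested. A call required that the mean share moved by 10 percentage points or more and that the adjusted p was under 0.05. Without the minimum change, and with limma's diffSplice, the count was also 0, and 4 of the 68 (5.88%) had an unadjusted p under 0.05, beside 6.37% of all transcripts. The other 14 genes had fewer than 2 transcripts above the filter. In 23 of the 41 genes the leading transcript held over 90% of the counts in both groups. In 37 genes that transcript was annotated as protein coding, and the exceptions were COX7A2L, UQCR11, ATP5MG and ATP5F1D.

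The largest changes of a mean share were under 6 percentage points and were found in COX5B and COX5A. COX5B-201, the coding transcript, was at 86.0%, 83.3%, 85.2% and 82.8% in shPTBP1 replicates 1 to 4 and at 91.7%, 85.6%, 91.4% and 91.9% in shSCR replicates 1 to 4. It was lower in 3 of the 4 KD libraries than in any control, and replicate 1 of KD lay above shSCR replicate 2 (adjusted p = 1.00 in diffSpliceDGE). COX5B-202, without a defined reading frame, went from 8.88% ± 2.79 after shSCR to 13.3% ± 2.87 after shPTBP1. Its groups overlapped (adjusted p = 0.691 in diffSpliceDGE). COX5A-201 went from 36.4% ± 0.76 after shSCR to 31.0% ± 4.91 after shPTBP1 (SD, n = 4), and COX5A-205 from 45.6% ± 2.59 to 50.7% ± 3.98, and for both the groups overlapped. The smallest p belonged to UQCRQ-205, a minor transcript that lacks the middle exon of UQCRQ. It held 1.29%, 2.74%, 2.64% and 2.10% of the counts in shPTBP1 replicates 1 to 4 and 1.72%, 1.02%, 0.842% and 1.62% in shSCR replicates 1 to 4, with shPTBP1 replicate 1 among the controls (diffSpliceDGE adjusted p = 0.0834). The groups did not overlap in the shares of UQCRC2-201, ATP5PF-201, ATP5PF-202 and COX7C-205, none of them called. ATP5PF-202 went from 2.50% ± 0.32 after shSCR to 1.63% ± 0.18 after shPTBP1 (diffSpliceDGE adjusted p = 0.159). COX7C-205 went from 35.9% ± 2.10 to 32.8% ± 0.51. How often groups were apart over all transcripts tested was not computed.

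Exon use was followed in the gamma subunit gene ATP5F1C, chosen after its values were seen. Its exon at chr10:7796121-7796155, with 35 coding bases, is in the main transcript ATP5F1C-202 and is skipped in ATP5F1C-210, which has no defined reading frame. It is printed in capitals from hg38 on the plus strand, with 40 intron bases before it and 20 after it, since these are the letters that tell the 2 isoforms apart.
ATP5F1C: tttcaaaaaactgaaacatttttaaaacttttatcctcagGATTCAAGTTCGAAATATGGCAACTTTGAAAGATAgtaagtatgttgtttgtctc

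The transcripts that include this exon held 74.3%, 72.6%, 73.7% and 73.4% of the counts that span it in shPTBP1 replicates 1 to 4 and 75.0%, 72.4%, 75.8% and 75.7% in shSCR replicates 1 to 4. The groups overlapped. ATP5F1C-210 itself held 26.4% ± 0.75 after shPTBP1 and 25.3% ± 1.53 after shSCR (SD, n = 4; diffSpliceDGE adjusted p = 1.00). The same gene has an exon of 37 bases near its end that is known to be skipped in heart and muscle. In these cells it was included in 98.1% ± 0.60 of the counts after shPTBP1 and 97.6% ± 0.68 after shSCR.

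**Figure D5:**
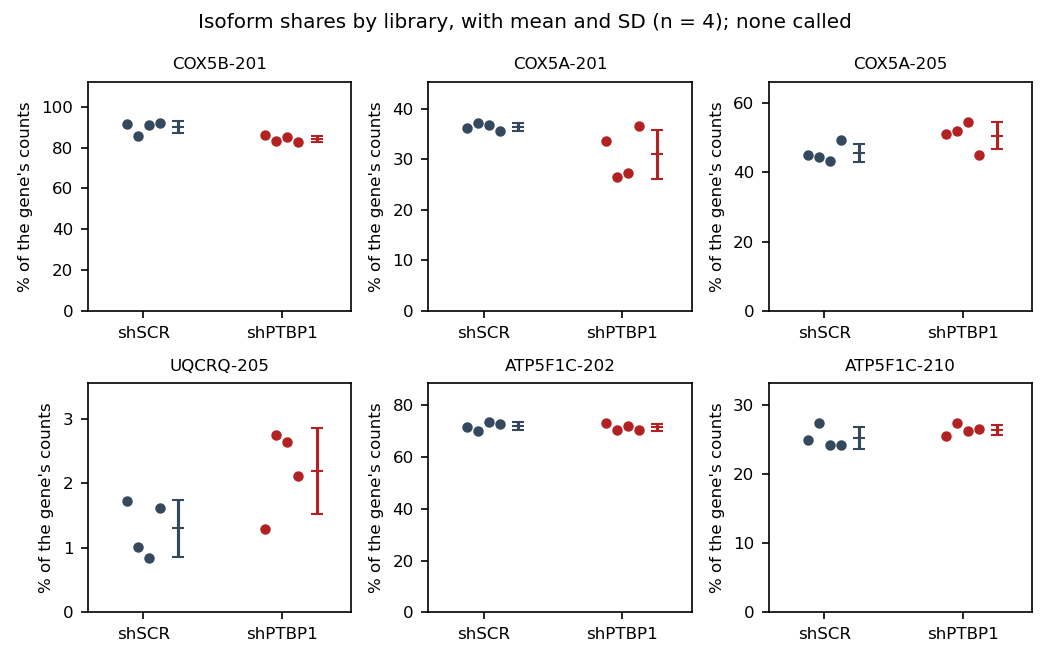
Share of the gene's counts on 6 member transcripts in each library (points, replicates 1 to 4 from left to right) with mean and SD (n = 4): the 3 largest changes of the mean share (COX5B-201, COX5A-201, COX5A-205), the smallest p (UQCRQ-205) and the 2 main transcripts of ATP5F1C. The groups overlap in every panel, and none was called.

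The rest of the respiratory machinery was read from lists chosen for this comparison, in which counts at an unadjusted p stand beside the 691 higher and 768 lower of all genes given above. Of 12 other subunits, tissue-specific or recently assigned, 5 were tested and none was called by edgeR, with 1 at an unadjusted p under 0.05. The nearest was ATP5MJ, a small subunit of complex V, at 297 ± 8.47 normalized CPM after shPTBP1 and 254 ± 16.9 after shSCR (log2 fold change 0.22, adjusted p = 0.0733), followed among those named by the rule by DMAC2L, with 0.21 and 0.684. Of 42 assembly factors, 37 were tested and 2 were called, 1 higher (2.70%) and 1 lower. Over all genes tested, 2.36% were called higher and 3.19% lower. COA1, an assembly factor of complex IV, was at 41.2, 46.3, 59.2 and 46.8 normalized CPM in shPTBP1 replicates 1 to 4 and at 24.3, 34.0, 32.9 and 31.0 in shSCR replicates 1 to 4, and rose by 0.66 on the log2 scale (adjusted p = 0.0215). CMC1, which acts in the early maturation of the COX1 subunit, was at 72.5, 72.4, 74.8 and 78.4 after shPTBP1 and at 92.9, 93.7, 113 and 108 after shSCR, and fell by 0.45 on the log2 scale (adjusted p = 0.0146). Both groups of libraries were apart for each of these genes, which moved in opposite directions. They were apart for 5 of the 37 factors (13.5%), beside 12.7% of all genes tested. The median over the 37 factors was 0.09.

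Complex I, which feeds electrons into the same chain from NADH, has 37 nuclear subunits on the list, all of which were tested. Of these, 1 was called higher (2.70%) and 1 lower, beside 2.36% and 3.19% of all genes tested. NDUFB8 was called higher (log2 fold change 0.30, edgeR adjusted p = 0.0451), at 966, 1051, 1000 and 1053 normalized CPM in shPTBP1 replicates 1 to 4 and 859, 671, 881 and 884 in shSCR replicates 1 to 4. NDUFC1 was called lower (log2 fold change -0.67, adjusted p = 0.00945), at 32.5, 35.2, 40.3 and 33.5 after shPTBP1 and 52.8, 51.6, 67.8 and 53.9 after shSCR. The groups were apart for both, and for 3 of the 37 in all (8.11%), beside 12.7% of all genes tested. The median over the 37 was 0.04. Of the 6 mitochondrially encoded subunits of complexes III to V, 5 were tested, none was called by edgeR, and 2 were higher at an unadjusted p under 0.05, a limit that 691 of all 7597 genes passed in that direction. MT-CO1, the catalytic core of complex IV, was at 315, 285, 392 and 371 normalized CPM in shPTBP1 replicates 1 to 4 and at 276, 158, 263 and 285 in shSCR replicates 1 to 4. The lowest KD library and the highest control were both at 285, and shSCR replicate 2 was far below the other controls (log2 fold change 0.47, adjusted p = 0.0982). MT-ATP6 was at 465 in shPTBP1 replicate 1 and between 122 and 161 in the other KD libraries, beside 88.7 to 131 in the controls (log2 fold change 0.96, adjusted p = 0.143). Mitochondrial counts as a whole made up 1.83% to 2.18% of the KD libraries and 1.09% to 1.88% of the controls.

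Among 13 regulators of respiratory genes, 11 were tested and none was called by edgeR, with 1 at an unadjusted p under 0.05. That gene was TFAM, which packages and transcribes mitochondrial DNA, with a log2 fold change of 0.60 (adjusted p = 0.245) from 17.3 ± 6.99 to 26.3 ± 7.11 normalized CPM. GABPB2, a partner of the ETS factor GABPA, came next with 0.34 (adjusted p = 0.286), and NRF1 had -0.29. Of 7 carriers and channels that move phosphate, ADP and ATP across the membranes, 6 were tested and none was called by edgeR, with 2 at an unadjusted p under 0.05. They were SLC25A3, the phosphate carrier, with 0.18 (adjusted p = 0.139), and SLC25A5, an ADP/ATP carrier, with 0.22 (adjusted p = 0.197), and all 6 estimates were above 0.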

How the data were processed

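RNA-seq of 8 MOLM-13 libraries was examined, grouped and numbered by the sample labels. The authors read cDNA on a nanopore instrument, aligned it to hg38 with minimap2, kept reads with a mapping quality over 50, and obtained whole-number transcript counts with StringTie; versions and annotation are not given in the sources used here. A second deposited table, named TPM, holds CPM values without division by transcript length, and served only the limma-trend alternative. The authors tested genes with DESeq2.

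Transcripts were assigned to genes by Ensembl identifier in GENCODE version 44 (252562 of 254070 found) and the counts summed. Libraries held 1528449 to 1613342 counts, which limits precision for genes of few counts, and intervals on counts would cover counting error only. Replicates differed by 2.12 to 3.94 times counting noise, so no library was a copy of another. Counts were filtered by filterByExpr (minimum count 10), scaled by TMM and tested with edgeR 4.0.16 (quasi-likelihood, group as the only term). SEs were taken from the F statistic, as the size of the change over its root, and intervals are at 95%. Isoforms were tested with diffSpliceDGE. The steps were run on simulated data with known changes. For isoforms the main transcripts of a gene were swapped, so these runs do not measure the power for small changes of a share. Transcript length is the mean over a gene's counts.

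Members were taken by subunit name and not by a measured value, though they and the lists were chosen with earlier results of these data known. Values in every library are given for members called and for the 6 others with the smallest p, and for called genes of the other subunit and assembly lists. Where a list had no call, the 2 genes with the smallest p are given, some by means or fold changes alone. Other genes were named after their values were seen, and the motifs were chosen likewise. Alternatives were DESeq2 1.42.0, limma-voom and limma-trend (limma 3.58.1, log2 of CPM plus 1), DESeq2 size factors, other filters, thinning, protein coding transcripts only, pseudogene counts added, the replicate number as a block, and leaving out each library. Computations used R 4.3.3 and Python 3.11.15.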

Additional observations from a re-analysis of the deposited data

Results flagged for a closer look

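In 11 of 94 groups of 4 libraries (11.7%), for the members and the called genes of the other lists, 1 library stood apart by a gap above the 95% critical value of Dixon's test. Chance flags about 1 in 20 groups if these are independent, and genes measured in the same libraries are not. In 7 of these it was shPTBP1 replicate 1, lower than the other KD libraries, all in normalized CPM: UQCRH at 707 (others 808 to 823), COX7A2 at 1403 (1569 to 1601), COX7A2L at 176 (185 to 186), COX8A at 1819 (2116 to 2142), ATP5ME at 452 (627 to 649), ATP5MG at 989 (1163 to 1178) and ATP5PF at 1354 (1532 to 1549). Among the KD libraries shPTBP1 replicate 3 was high in SDHC, at 81.3 (others 63.9 to 66.4), and shPTBP1 replicate 4 was high in COX5A, at 163 (129 to 131). Among the controls, shSCR replicate 2 was low in NDUFB8, at 671 (859 to 884), and shSCR replicate 3 was high in NDUFC1, at 67.8 (51.6 to 53.9). Of the called members COX7A2L is among these, and shPTBP1 replicate 1 is its KD library nearest to the controls. The raw counts of COX7A2L in shPTBP1 replicates 1 to 4 were 281, 283, 284 and 294. Its flag therefore rests on how close together the other KD libraries were, and not on a large gap.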

How the results depend on the processing

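UQCRC2, COX7A2L and ATP5MC1 were called higher in every alternative in which they were tested. The exception is the use of protein coding transcripts only, where COX7A2L was not tested because few of its counts are on such transcripts, and 2 genes were called. With 1 library left out, between 3 and 4 members were called higher (the fourth being ATP5PF without shPTBP1 replicate 1), none lower, and no isoform. The highest adjusted p over these 8 fits was 0.0263 for UQCRC2, 0.0453 for COX7A2L and 0.0237 for ATP5MC1. The median log2 fold change of the members was between 0.02 and 0.10 in these fits and between 0.01 and 0.06 in the alternatives that keep all libraries. UQCRFS1 was called in none of the alternatives that gave it an adjusted p, which lay between 0.0586 and 0.239; DESeq2 gave none, and a mean of at least 50 counts left it out. Over all genes, 421 were called, and between 184 and 358 with 1 library left out. With the replicate block, that is the replicate number as a paired term, 3 members were called higher and 0 lower, no call of a member changed, and 323 of all genes were called. The numbers were not taken as pairing, since same-numbered libraries correlated between -0.0328 and 0.00889. At this depth a change was not detectable in ATP5F1D unless it was large.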
